A study of Homo sapiens with 9 samples.

Results

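Integrins and laminins, the receptors and ligands through which epithelial cells hold to their basement membrane, were followed in SKOV3 ovarian cancer cells. Members were taken by name, from genes listed as protein coding whose symbol begins with ITGA or ITGB, leaving out symbols that hold BP, and those whose symbol is made of LAMA, LAMB or LAMC and a digit. The 38 genes described here, of 58735 in the deposited table, are 27 integrin genes and 11 laminin genes. The filter on low counts was passed by 29 of the 38, and these are among the 16350 genes that were tested. The 9 that did not pass are given at the end with their counts.

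RNA of SKOV3, an established ovarian carcinoma line, was sequenced in bulk in 9 libraries. The 3 WT libraries came from cells expressing WT CDK9, the kinase that releases paused RNA polymerase II. The 3 Ai libraries came from WT CDK9 cells given an ALK inhibitor for 24 h, and the 3 Y19F libraries from cells expressing CDK9 with tyrosine 19 replaced by phenylalanine, which cannot be phosphorylated there. The study describes stable SKOV3 lines that re-express these forms of CDK9 after depletion of the endogenous protein. For the RNA libraries themselves, the depletion, the number of clones, the enrichment of mRNA and the name and dose of the inhibitor were not given in the sources used here. Y19F and WT are therefore separate lines as well as separate CDK9 forms, and the 2 cannot be told apart in their comparison, whereas Ai and WT share a line.

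Integrins are receptors made of 1 alpha and 1 beta chain, and the alpha chain largely sets which matrix protein is bound. ITGA3, ITGA6 and ITGA7 pair mainly with ITGB1 or, for ITGA6, also with ITGB4 and bind laminins, ITGAV and ITGA5 form receptors for fibronectin and other proteins with an arginine-glycine-aspartate motif, and ITGA1, ITGA2 and ITGA10 bind collagens. Laminins are secreted trimers of 1 alpha, 1 beta and 1 gamma chain. The LAMA3 and LAMB3 chains belong to the epithelial laminin bound at hemidesmosomes, and LAMA5 with LAMB1 or LAMB2 and LAMC1 forms the main laminins of many adult basement membranes.

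Total counts ran from 18169050 to 20974903 in the WT and Ai libraries and from 26485891 to 29320184 in Y19F, so that depth moved with the group, and the scaling factors stayed between 0.986 and 1.01. At least 1 count was found for 21241 to 22744 genes in 7 libraries, but for 19944 in Ai replicate 2 and 20635 in Y19F replicate 3. CDK9 RNA lay between 47.6 and 49.7 CPM in WT, 43.8 and 47.3 in Ai and 52.4 and 59.5 in Y19F, which does not show the substitution. By the test described below it was higher in Y19F than in Ai, with a log2 fold change of 0.27 ± 0.076 (edgeR adjusted p = 0.00961). Against WT it did not pass the threshold in either group. ALK reached at most 5 counts in any library. Of 9 markers of epithelial and ovarian carcinoma cells all 9 exceeded 3 counts in at least 1 library. However, MUC16 reached at most 9 counts and WT1 at most 2.78 CPM. In WT, Ai and Y19F, KRT19 averaged 246, 284 and 104 CPM, EPCAM 21.2, 20.9 and 12.0 and ERBB2 1800, 2625 and 1470. KRT7 averaged 1620, 1273 and 1523 CPM. KRT8 was higher in Y19F than in WT, at 1307, 1306 and 1695 CPM in WT, Ai and Y19F. The same held for KRT18, at 135, 149 and 177 CPM. The part of these markers in the results was not tested. The 7 leukocyte markers summed to at most 0.830 CPM, and the 3 platelet and 3 muscle markers to at most 1.76 and 3.48 CPM. The 4 endothelial markers summed to 0.975 to 2.62 CPM in WT, 1.29 to 1.95 in Ai and 3.28 to 4.34 in Y19F, and their part in the results was not tested. Nothing says that the replicates came from separate cultures, so p-values measure the spread between these libraries, which may be technical. In bulk RNA, fewer cells with a transcript and less of it per cell cannot be told apart.

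CPM below are counts per 1000000 of the scaled library size, and a floor of 3 counts corresponds to 0.102 to 0.165 CPM depending on the library. Differences are log2 fold changes ± standard error from edgeR's quasi-likelihood test on all 9 libraries, and a gene was called where its p-value, adjusted by Benjamini-Hochberg over all 16350 tested genes, fell under 0.05. A single gene compared by exact permutation of 3 against 3 libraries could not go below p = 0.1, so that test was not used.

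Short stretches of promoter were read for the members that were called against WT, since TEAD factors and AP-1 are known to act at adhesion genes. RefSeq promoter windows, from 250 bases before to 50 after a transcription start on GRCh38.p14, were held for 27 of the 38 members, in 34 windows. ITGA3 and ITGB4 were not analysed here in this way. GGAATG, the core of the TEAD motif, or its other strand CATTCC, was in 4928 of 35116 promoters (14.0%) and in 4 of the 34 member windows. TGACTCA or TGAGTCA, which are each other's other strand and the AP-1 consensus, were in 1738 promoters (4.95%) and in 3 member windows. The matches in members called against WT are printed 5′ to 3′ on the gene's strand with the match in capitals, and all lie inside the gene limits of the deposited table.
ITGA5 TEAD, minus strand, chr12:54419332-54419359: ccagggacccaGGAATGcccccccgcca
ITGA5 AP-1, minus strand, chr12:54419255-54419283: cctccccgcgtTGAGTCAttcgcctctgg
ITGB1 TEAD, minus strand, chr10:32958396-32958423: gcggcgggagaGGAATGcgtttccggag
LAMB3 AP-1, minus strand, chr1:209651424-209651452: gtcagccactcTGACTCAttcactttggg
LAMA3 AP-1, plus strand, chr18:23872884-23872912: ctggcacaggcTGACTCAtgtgtgaagtt
LAMA3 AP-1, plus strand, chr18:23872940-23872968: ccttcctcaccTGAGTCAggcaggcccgg
ITGA5 was the 1 member with both motifs. The ITGB1 match and both LAMA3 matches belong to starts far inside the limits of their genes. The remaining TEAD matches were in ITGA10 and LAMA2. A match is a stretch of letters and was not tested as a site.

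Compared per kilobase of the length listed for each gene, the family was dominated by ITGB1, which stood at 476 CPM per kb in WT, 519.6 in Ai and 551 in Y19F. ITGA3 followed with 179, 200.4 and 175 CPM per kb, then LAMC1 with 147, 151 and 133 CPM per kb. The laminin chain LAMB3 stood at 65.1 CPM per kb in WT. ITGAV, ITGB5, ITGA6, LAMB1 and LAMA5 came next per length, from 30.6 to 49.8 CPM per kb in WT. LAMA3, LAMB2, ITGA5, ITGB4 and ITGB8 lay between 11.6 and 19.5 CPM per kb in WT. ITGB6, ITGB3 and ITGA4 lay between 3.96 and 5.39, and below ITGA1 at 2.33 no member exceeded 1.89 CPM per kb in WT. SKOV3 RNA thus held the chains of a laminin receptor of ITGA3 and ITGB1 above the rest, with ITGB4 lower than its partner ITGA6.

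**Figure D1:**
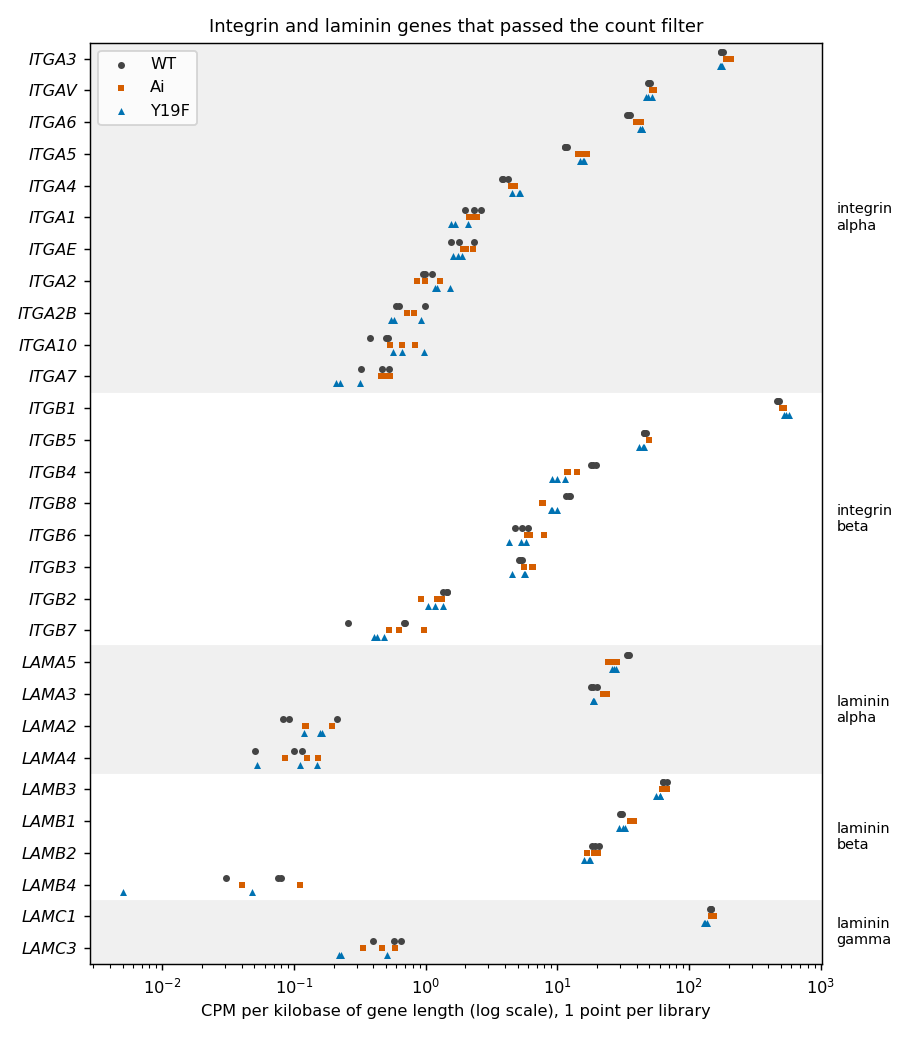
Level of the 29 integrin and laminin genes that passed the count filter, as CPM per kilobase of gene length on a log scale, with 1 point for each of 9 libraries and genes grouped by chain. ITGB1 is at the top in every group and LAMB4, with 2 libraries at 0 that are not drawn, is at the bottom.

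With the inhibitor, 6 of the 29 tested members were higher than in WT and 3 were lower. Over all tested genes 1.82% were called higher and 2.73% lower, 4.55% in all, against 31.0% of the members. In Y19F, 4 members were higher and 7 lower than in WT, where 7.61% of all tested genes were called higher and 10.4% lower, 18.0% in all, against 37.9% of the members. Scaling by library size alone changed the split over all genes from 297 higher and 447 lower to 406 and 344 in Ai, and from 1245 and 1695 to 1544 and 1451 in Y19F. The median log2 fold change over the 29 members was 0.13 in Ai and -0.075 in Y19F, beside -0.0010 and 0.0035 over all tested genes. Well measured genes are called more often: of the 7967 genes that averaged 20 CPM or more, a limit chosen after the values were seen, 7.83% were called in Ai and 28.5% in Y19F. Of the 18 members at that level, 9 and 11 were called, which are all the members called against WT. Y19F and Ai were both compared with the same 3 WT libraries, so their values are set side by side here and compared directly further down.

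**Figure D2:**
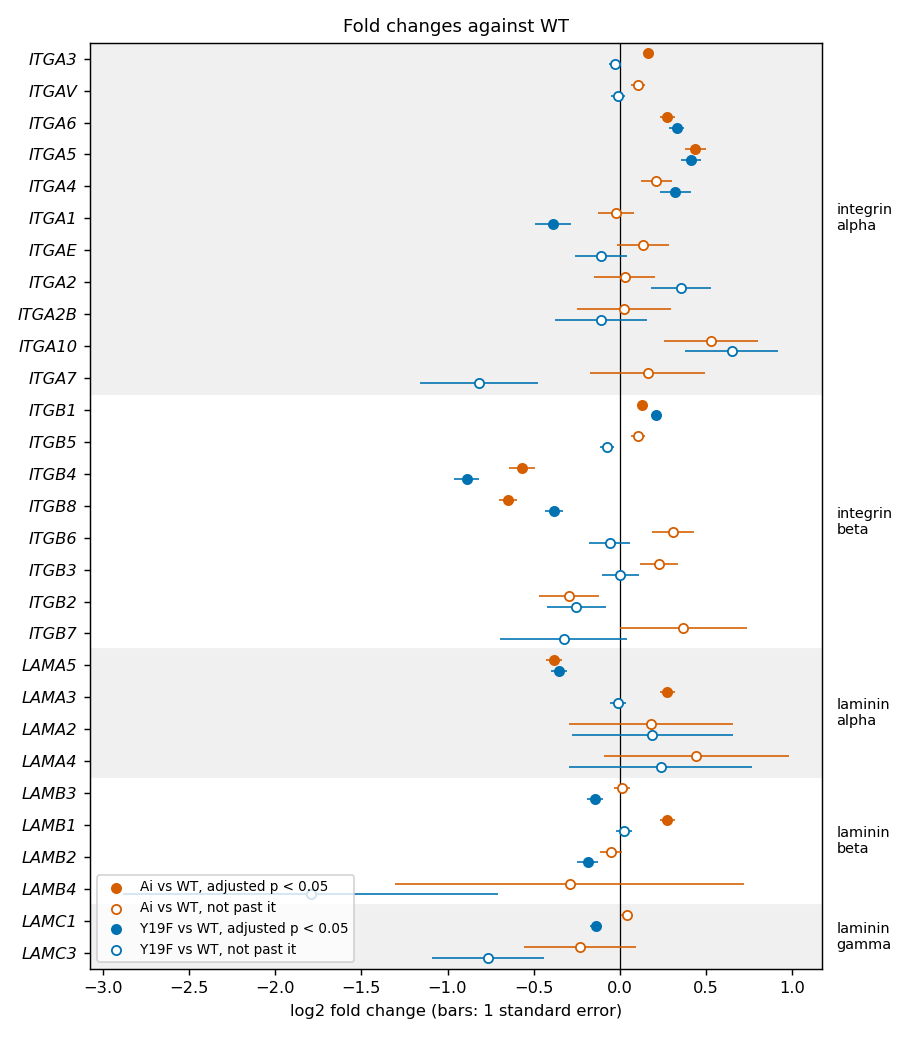
Log2 fold change of each tested member against WT for Ai and Y19F, with bars of 1 standard error and filled points where the adjusted p was under 0.05. ITGB4 reaches -0.57 in Ai and -0.89 in Y19F, while ITGA5 stands at 0.44 and 0.41.

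ITGB1 (ENSG00000150093, chr10:32900319-33005792 on hg38, minus strand), the beta chain shared by most matrix receptors of epithelial cells, was higher in both groups by a small and regular amount. Its level was 2870.2, 2813 and 2902 CPM in the WT libraries, 3134, 3157 and 3078 CPM in Ai and 3442, 3190.0 and 3299.9 CPM in Y19F. The 3 groups did not overlap, with WT lowest and Y19F highest. The log2 fold change was 0.13 ± 0.029 (edgeR adjusted p = 0.00528) in Ai, an increase of 9.15%, and 0.21 ± 0.029 (edgeR adjusted p = 1.39e-06) in Y19F, an increase of 15.7%. The median over the 31 tested genes that start within 5 Mb of ITGB1 was 0.12 in Y19F and -0.053 in Ai, so that its chromosomal neighbourhood moved the same way in Y19F.

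ITGB4 (chr17:75721328-75757818, plus strand), the long-tailed partner of ITGA6 that anchors hemidesmosomes to keratin filaments, was the member that fell most in Y19F among those called. It stood at 127, 134 and 122 CPM in the WT libraries, 80.3, 81.9 and 96.3 CPM in Ai and 78.1, 66.9 and 61.7 CPM in Y19F. All treated and mutant libraries were below all WT libraries, and Y19F lay below Ai. The log2 fold change was -0.57 ± 0.074 (edgeR adjusted p = 1.97e-06) in Ai and -0.89 ± 0.074 (edgeR adjusted p = 7.8e-11) in Y19F, a decrease of 32.6% and 46.0%. GALK1 overlaps ITGB4 on the other strand and held 32.6% as many counts, and its log2 fold change was 0.15 in Ai and -0.013 in Y19F, both uncalled.

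ITGB8 (chr7:20330702-20415754, plus strand), an ITGAV partner known for releasing active TGF-beta, was the member that fell most in Ai. The level was 191, 176 and 185 CPM in the WT libraries, 116, 117 and 119 CPM in Ai and 151, 136 and 137 CPM in Y19F. Here the order differed from ITGB4, since the 3 Ai libraries were lowest, within 3 CPM of each other, and Y19F lay between them and WT with no overlap. The log2 fold change was -0.65 ± 0.052 (edgeR adjusted p = 9.68e-11) in Ai and -0.38 ± 0.051 (edgeR adjusted p = 1.16e-06) in Y19F.

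ITGB5, ITGB6 and ITGB3, which also pair with ITGAV, were not called against WT. ITGB5, which binds vitronectin, was at 294, 303 and 297 CPM in the WT libraries, 320.2, 321 and 321 CPM in Ai and 292, 287 and 269 CPM in Y19F. All Ai libraries were above, and all Y19F libraries below, the WT libraries, with log2 fold changes of 0.11 ± 0.041 (edgeR adjusted p = 0.18) and -0.075 ± 0.041 (edgeR adjusted p = 0.232). ITGB6, an epithelial beta chain, was at 25.1, 22.5 and 28.2 CPM in the WT libraries, 27.7, 37.2 and 29.0 CPM in Ai and 27.3, 25.0 and 20.3 CPM in Y19F, where WT overlapped both other groups and Y19F was below Ai. ITGB3, the beta chain of the classical vitronectin receptor, ranged from 19.96 to 28.5 CPM with log2 fold changes of 0.23 ± 0.11 and 0.0032 ± 0.11. AC092153.1, a transcript on the strand of ITGB6 and overlapping it, held 17.4% as many counts.

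Of the 11 alpha chains tested, the 3 called in Ai were higher than in WT, and of the 4 called in Y19F 3 were higher and 1 lower. ITGA3 (chr17:50055968-50090481, plus strand), the main alpha chain in these cells and a receptor for the LAMA3 and LAMA5 laminins, was at 1732, 1794 and 1728 CPM in the WT libraries, 2030.0, 1973 and 1889 CPM in Ai and 1742, 1731 and 1674 CPM in Y19F. All Ai libraries were above all WT libraries, whereas Y19F overlapped WT. The log2 fold change was 0.17 ± 0.031 (edgeR adjusted p = 0.00071) in Ai and -0.030 ± 0.031 (edgeR adjusted p = 0.592) in Y19F. ITGA6 (chr2:172427354-172506282, plus strand), the alpha chain of the hemidesmosome, was at 227, 221 and 232 CPM in the WT libraries, 283, 280.3 and 260.0 CPM in Ai and 286, 280.0 and 289.6 CPM in Y19F. Both groups were above WT without overlap and overlapped each other, with log2 fold changes of 0.28 ± 0.044 (edgeR adjusted p = 5.5e-05) and 0.33 ± 0.043 (edgeR adjusted p = 7.03e-07). Per kilobase ITGA6 thus went from 34.7 in WT to 42.0 in Ai and 43.7 in Y19F, while its partner ITGB4 went from 18.9 to 12.7 and 10.2. ITGA7, the laminin receptor of muscle, was near 2.52 CPM on average and was not called against WT, and the genes BLOC1S1 and METTL7B on its other strand held 568% and 108% as many counts.

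ITGA5 (chr12:54395261-54419460, minus strand), the fibronectin receptor chain, had the largest rise among the called members. Its level was 87.1, 86.6 and 90.2 CPM in the WT libraries, 128, 119 and 109.7 CPM in Ai and 114, 120.2 and 118 CPM in Y19F. The WT libraries lay close together and below the other 6, which overlapped between Ai and Y19F. The log2 fold change was 0.44 ± 0.060 (edgeR adjusted p = 4.68e-06) in Ai and 0.41 ± 0.059 (edgeR adjusted p = 3.08e-06) in Y19F, an increase of 35.4% and 33.3%. ITGAV, the alpha chain with the most beta partners, was at 398, 409 and 419 CPM in the WT libraries, 444, 445 and 428 CPM in Ai and 427, 399.8 and 388 CPM in Y19F. Its Ai libraries were above the WT libraries but the log2 fold change of 0.10 ± 0.041 (edgeR adjusted p = 0.183) did not pass the threshold, and that in Y19F was -0.013 ± 0.041 (edgeR adjusted p = 0.884). ITGA4, which binds fibronectin and VCAM1 and is best known from leukocytes, was at 30.8, 29.9 and 33.2 CPM in the WT libraries, 37.8, 36.0 and 34.9 CPM in Ai and 41.0, 40.4 and 36.0 CPM in Y19F. Every Ai and Y19F library was above every WT library, and the call was made in Y19F, at 0.32 ± 0.089 (edgeR adjusted p = 0.00897), and not in Ai, at 0.21 ± 0.090 (edgeR adjusted p = 0.237).

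Among the collagen receptors ITGA1 (chr5:52787896-52959210, plus strand) was at 43.7, 37.1 and 49.0 CPM in the WT libraries, 42.4, 45.8 and 39.6 CPM in Ai and 39.0, 31.2 and 28.9 CPM in Y19F. The Y19F libraries were lower on average but overlapped WT, with a log2 fold change of -0.39 ± 0.10 (edgeR adjusted p = 0.00698), and the Ai value was -0.023 ± 0.10 (edgeR adjusted p = 0.961). This call was lost without WT replicate 3, where the edgeR adjusted p in Y19F was 0.0901, or without Y19F replicate 3, where it was 0.0745. PELO lies inside ITGA1 on the same strand with 128% as many counts and a log2 fold change of -0.063 in Y19F, not called. ITGA2 and ITGA10 were at most 12.0 and 6.12 CPM in any library. Their log2 fold changes in Y19F were 0.35 ± 0.17 (edgeR adjusted p = 0.168) and 0.65 ± 0.27 (edgeR adjusted p = 0.0978).

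Of the 4 laminin alpha chains tested, LAMA5 and LAMA3 made up nearly all RNA per length, and they moved in opposite directions in Ai. LAMA5 (chr20:62307955-62367312, minus strand), the widespread alpha chain of adult basement membranes, was at 494, 506 and 481 CPM in the WT libraries, 381, 407 and 348 CPM in Ai and 399, 384 and 375 CPM in Y19F. All Ai and Y19F libraries were below all WT libraries and overlapped each other. The log2 fold change was -0.38 ± 0.045 (edgeR adjusted p = 2.83e-07) in Ai and -0.35 ± 0.045 (edgeR adjusted p = 3.44e-07) in Y19F. ADRM1 overlaps LAMA5 on the other strand with 30.5% as many counts, and was not called in either, at -0.043 and 0.14. LAMA3 (chr18:23689443-23956222, plus strand), the alpha chain of the hemidesmosomal laminin, was at 273, 263 and 296 CPM in the WT libraries, 351, 331 and 326 CPM in Ai and 277, 273 and 275 CPM in Y19F. The Ai libraries were above all others, while Y19F lay inside the WT range, with log2 fold changes of 0.28 ± 0.045 (edgeR adjusted p = 8.5e-05) and -0.011 ± 0.045 (edgeR adjusted p = 0.911).

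LAMB1 (chr7:107923799-108003255, minus strand), the beta chain of many basement membrane laminins, was at 254, 246 and 246 CPM in the WT libraries, 311, 303 and 289.8 CPM in Ai and 265, 256 and 238 CPM in Y19F. Ai stood above WT and Y19F, which overlapped, with log2 fold changes of 0.28 ± 0.045 (edgeR adjusted p = 8.67e-05) and 0.025 ± 0.045 (edgeR adjusted p = 0.778). DLD on the other strand of LAMB1 held 27.9% as many counts and was not called. LAMB3 (chr1:209614870-209652466, minus strand), the beta chain that assembles with LAMA3, was at 297, 319.7 and 298 CPM in the WT libraries, 321, 308 and 294 CPM in Ai and 282, 283 and 263 CPM in Y19F. Here Ai overlapped WT and Y19F was below both, with log2 fold changes of 0.013 ± 0.045 (edgeR adjusted p = 0.946) and -0.14 ± 0.045 (edgeR adjusted p = 0.0204). LAMB2, the beta chain of synaptic and renal laminins, was at 143, 127 and 133 CPM in the WT libraries, 117, 131 and 140.1 CPM in Ai and 123, 120.4 and 109.7 CPM in Y19F. Y19F was below WT and overlapped Ai, with log2 fold changes of -0.051 ± 0.063 (edgeR adjusted p = 0.8) in Ai and -0.19 ± 0.062 (edgeR adjusted p = 0.0334) in Y19F. Both Y19F calls were lost without Y19F replicate 3, with adjusted p-values of 0.166 and 0.218. LAMB3 also lost its call without WT replicate 2 (0.143), and LAMB2 without WT replicate 1 (0.234), WT replicate 3 (0.0676) or Y19F replicate 2 (0.0561), all as edgeR adjusted p-values. Scaling by library size alone ended both calls, with 0.0633 and 0.075, and upper-quartile scaling that of LAMB2, with 0.0654.

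LAMC1 (chr1:183023460-183145592, plus strand), the gamma chain of most laminins, was at 1241, 1221 and 1243 CPM in the WT libraries, 1296, 1277 and 1236 CPM in Ai and 1158, 1116 and 1092 CPM in Y19F. Y19F was below all other libraries and Ai overlapped WT, with log2 fold changes of 0.040 ± 0.033 (edgeR adjusted p = 0.65) and -0.14 ± 0.032 (edgeR adjusted p = 0.00222).

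**Figure D3:**
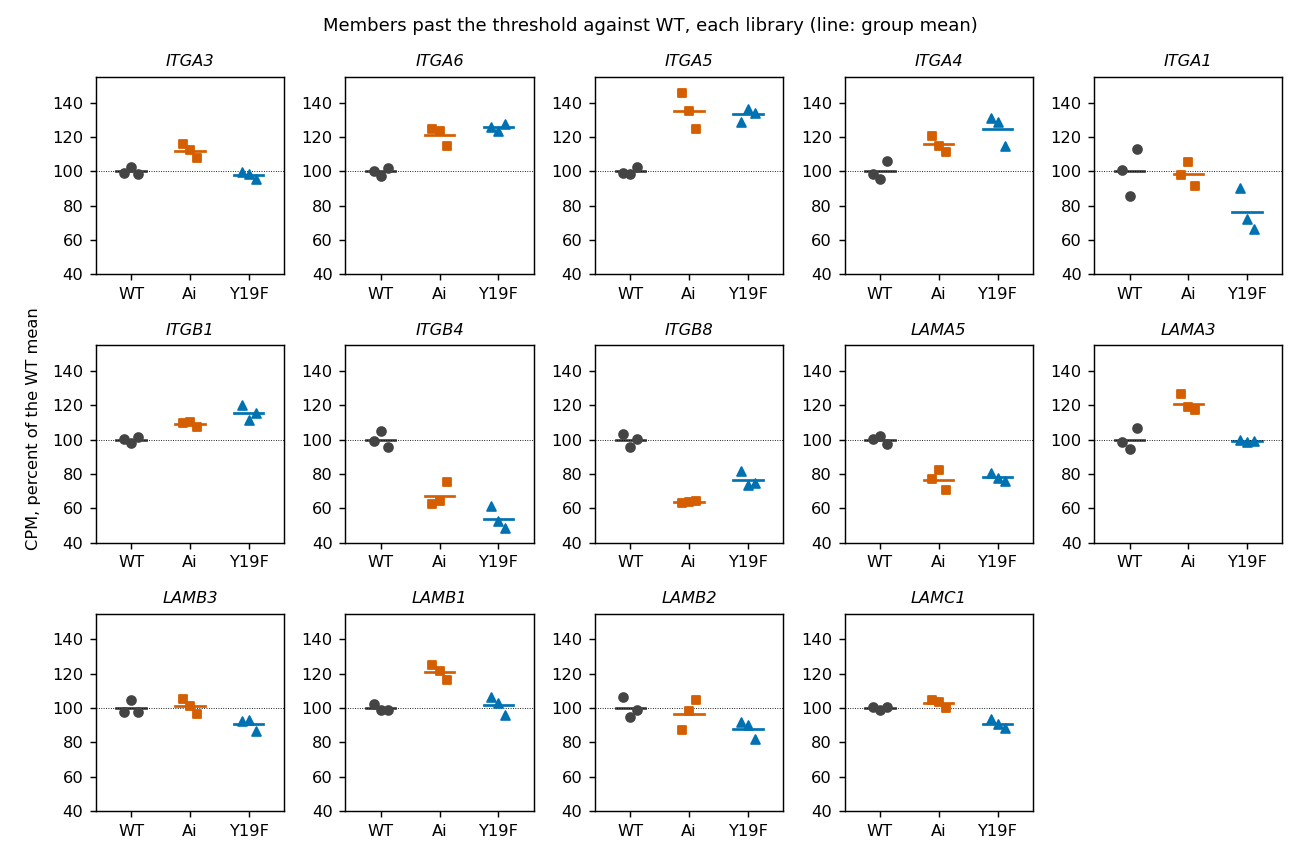
Level of the 14 members called against WT in Ai or Y19F, as percent of the WT mean CPM, with 1 point for each library and a line at the group mean. ITGA5 and ITGA6 lie above WT in both groups, ITGB4, ITGB8 and LAMA5 below in both, and the LAMA3 and LAMB1 points of Ai lie above those of WT and Y19F.

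Set directly against Ai, Y19F had 2 members higher and 11 lower of 29, where 9.57% of all tested genes were called higher and 11.1% lower, 20.7% in all. The 2 groups share no library here, and the median over the members was -0.18 beside 0.0018 over all tested genes. Of the 7967 genes that averaged 20 CPM or more 31.9% were called, and of the 18 members at that level 12 were. LAMA3 and LAMB1, which had been called against WT in Ai and not in Y19F, were lower in Y19F than in Ai, with log2 fold changes of -0.29 ± 0.044 (edgeR adjusted p = 1.01e-05) and -0.25 ± 0.045 (edgeR adjusted p = 7.59e-05). The same was found for ITGA3, at -0.20 ± 0.031 (edgeR adjusted p = 1.83e-05). LAMC1 and LAMB3 were lower too, at -0.18 ± 0.032 (edgeR adjusted p = 0.000106) and -0.16 ± 0.044 (edgeR adjusted p = 0.0102), which makes 4 laminin genes called of 10 tested. Among integrins ITGB4 was lower still in Y19F, at -0.32 ± 0.074 (edgeR adjusted p = 0.00176), and ITGB8 was higher, at 0.27 ± 0.052 (edgeR adjusted p = 0.000219), so that the size of the decrease differed between the groups in opposite senses for these beta chains.

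ITGA5, ITGA6, ITGA4 and LAMA5 were not called between Y19F and Ai, at -0.023 ± 0.058, 0.055 ± 0.043, 0.11 ± 0.088 and 0.028 ± 0.045, which does not show that they were equal. ITGA1, ITGB5 and ITGAV were lower in Y19F than in Ai, with log2 fold changes of -0.37 ± 0.10 (edgeR adjusted p = 0.0103), -0.18 ± 0.041 (edgeR adjusted p = 0.00144) and -0.12 ± 0.040 (edgeR adjusted p = 0.038). ITGB1 was higher, at 0.084 ± 0.029 (edgeR adjusted p = 0.0343). ITGB6 was lower, at -0.37 ± 0.12 (edgeR adjusted p = 0.0248). ITGA7 was called here and not against WT, at -0.98 ± 0.34 (edgeR adjusted p = 0.0376), from 3.39, 2.06 and 2.99 CPM in the WT libraries, 3.42, 3.08 and 2.95 CPM in Ai and 2.03, 1.42 and 1.32 CPM in Y19F. Its Y19F libraries were below the WT and Ai libraries, but these are few counts.

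Several of the direct calls were lost when a single library was left out, which also leaves fewer libraries in a group. ITGB6 lost its call without Ai replicate 2 (edgeR adjusted p = 0.241) or Y19F replicate 3 (0.187), and LAMB3 without Ai replicate 1 (0.0881) or Y19F replicate 3 (0.0928). ITGA1 lost it without Ai replicate 2 (0.0652), Y19F replicate 2 (0.058) or Y19F replicate 3 (0.0928), all as edgeR adjusted p-values. For ITGB1 this happened without any of the 3 Ai libraries, Y19F replicate 1 or Y19F replicate 3, with edgeR adjusted p-values from 0.0523 to 0.214. For ITGA7 it happened without any of the 3 Ai libraries, Y19F replicate 2 or Y19F replicate 3, from 0.06 to 0.113, and for ITGAV without WT replicate 1, Ai replicate 1 or 2, or Y19F replicate 2 or 3, from 0.0538 to 0.238. The ITGAV call was also lost with upper-quartile scaling (0.058), no filter beyond 1 count (0.0721) or protein-coding genes alone (0.0512). With no filter beyond 1 count, ITGB1 (0.0597) and ITGA7 (0.0723) lost theirs, all as edgeR adjusted p-values. Without both Ai replicate 2 and Y19F replicate 3, leaving out the libraries with fewer genes detected together, as chosen after the values were seen, 1 member was higher and 7 lower, and ITGB1, ITGA1, ITGA7, ITGAV, ITGB5, ITGB6 and LAMB3 were no longer called, with log2 fold changes between -0.87 and 0.098. ITGB6 then stood at -0.11 and ITGA1 at -0.22. LAMC3 and LAMB4, which had few counts, were called lower there and not with all libraries. Against WT in that setting 6 members were higher and 3 lower in Ai. In Y19F 4 were higher and 6 lower, where ITGA1, LAMB2 and LAMB3 were no longer called and LAMC3 and LAMB4 were called.

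**Figure D4:**
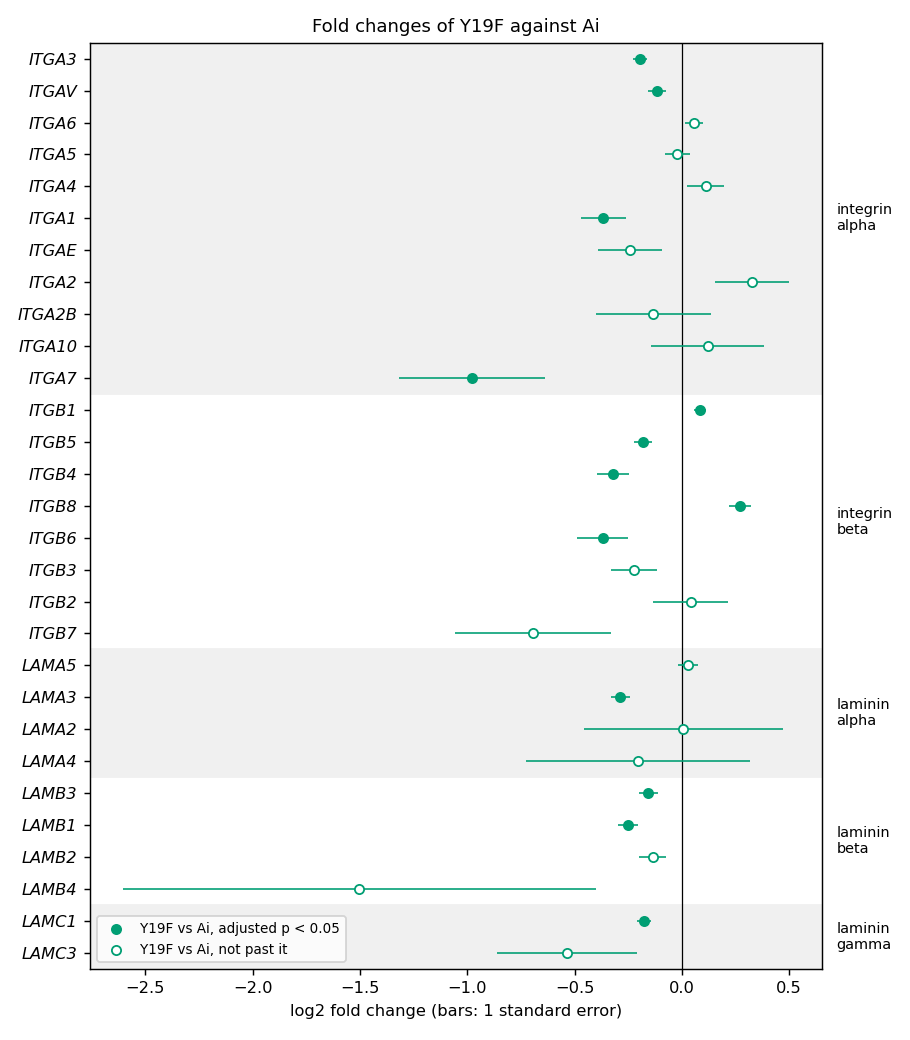
Log2 fold change of Y19F against Ai for each of the 29 tested members, with bars of 1 standard error and filled points where the adjusted p was under 0.05. ITGB8 at 0.27 and ITGB1 at 0.084 are the filled points above 0, and the other 11 are below.

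Per length, LAMA3 gave 35.2% ± 1.99 of all laminin alpha chain RNA in WT, 46.1% ± 1.83 in Ai and 40.8% ± 0.724 in Y19F (SD, n = 3), and LAMA5 gave 64.4% ± 1.91, 53.3% ± 1.96 and 58.7% ± 0.614. The distance between WT and Ai was several times the SD. Among beta chains ITGB1 gave 84.1% ± 0.251 in WT, 86.0% ± 0.219 in Ai and 88.0% ± 0.573 in Y19F, ITGB4 3.34% ± 0.196, 2.11% ± 0.238 and 1.63% ± 0.148, and ITGB8 2.14% ± 0.0658, 1.28% ± 0.0279 and 1.49% ± 0.0319. Among alpha chains ITGA3 gave 62.5% ± 0.857, 61.9% ± 0.211 and 59.3% ± 0.292, ITGA6 12.1% ± 0.359, 13.0% ± 0.187 and 14.8% ± 0.496, and ITGA5 4.06% ± 0.104, 4.85% ± 0.218 and 5.25% ± 0.23. These shares were not tested, and RNA shares say nothing of the assembled receptors.

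Because Y19F and WT are separate lines, each member called in Y19F was set beside the tested genes that start within 5 Mb of it. The medians of these neighbours lay between -0.080 and 0.12, and that for ITGB4 was 0.010 over 114 genes, for ITGA5 0.016 over 164, for ITGA6 -0.075 over 67 and for LAMA5 -0.019 over 85. ITGB1 was the member whose neighbours came nearest to its own change as a ratio, and for ITGA6, ITGA4 and ITGB4 the neighbours had the other sign.

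**Figure D5:**
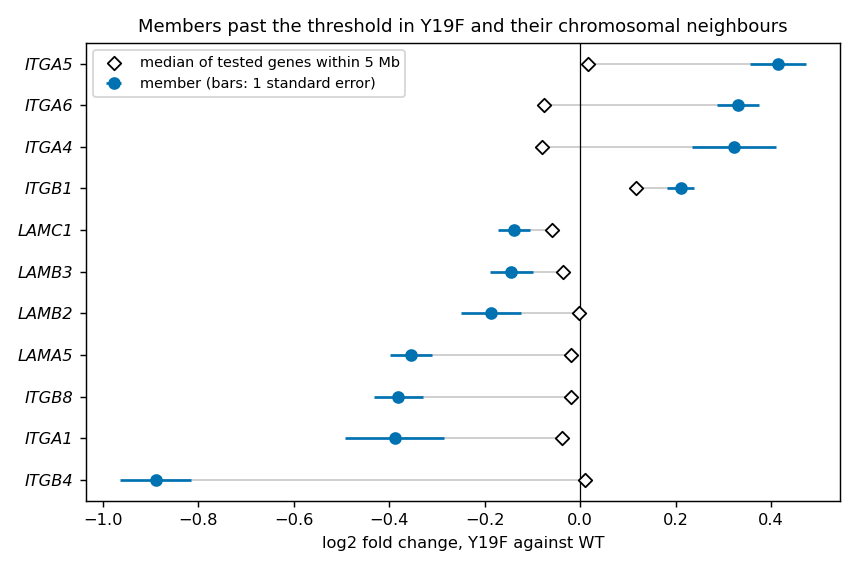
Log2 fold change in Y19F against WT of the 11 members called there, with bars of 1 standard error, beside the median of the tested genes within 5 Mb (diamonds). The diamonds stay between -0.080 and 0.12, and ITGB4 lies at -0.89 beside 0.010.

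Inside the cell, integrin tails are tied to actin by adaptors and kinases, and a list of 49 of these held 47 tested genes. In Ai 3 were higher and 1 lower than in WT, and in Y19F 10 were higher and 8 lower, with list medians of -0.018 and 0.052. This was 8.51% and 38.3% of the list, beside 4.55% and 18.0% of all tested genes. Between Y19F and Ai 9 were higher and 6 lower, 31.9% of the list, where 20.7% of all tested genes were called. Most of the list averaged 20 CPM or more. Among all genes at that level 7.83% were called in Ai, 28.5% in Y19F and 31.9% between them. The list was thus near the share at its level in Ai and between Y19F and Ai. TNS1, a tensin of fibrillar adhesions, was at 9.97 ± 0.883 CPM in WT, 15.3 ± 2.64 in Ai and 15.5 ± 2.13 in Y19F (SD, n = 3), at 0.62 ± 0.15 (edgeR adjusted p = 0.00964) in Ai and 0.64 ± 0.15 (edgeR adjusted p = 0.00205) in Y19F. KANK2, which binds talin, and TNS2 were also higher in Ai, at 0.15 ± 0.043 and 0.29 ± 0.086, and TNS3 was lower at -0.25 ± 0.069. The 4 calls in Ai became 1 without any single WT library or without Ai replicate 3, and 0 by edgeR without Ai replicate 1, where 9 of the list had an unadjusted p under 0.05. DESeq2 on all libraries called 6. In Y19F the calls with the smallest adjusted p among those higher were TGFB1I1, a paxillin relative (139 ± 4.21 CPM in WT, 195 ± 2.37 in Y19F, 0.49 ± 0.050 (edgeR adjusted p = 8.94e-09)), the scaffold PXN (0.33 ± 0.046 (edgeR adjusted p = 2.08e-06)) and the talin partner VCL (0.22 ± 0.032 (edgeR adjusted p = 6.61e-06)). Among those lower were the actin crosslinker FLNA (-0.15 ± 0.026 (edgeR adjusted p = 6.34e-05)), LASP1 (-0.18 ± 0.036 (edgeR adjusted p = 0.000476)) and TNS3 (-0.28 ± 0.068 (edgeR adjusted p = 0.00313)).

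Partners at the membrane and in the basement membrane, such as nidogens, syndecans and the laminin receptors DAG1 and BCAM, made a list of 33 genes with 29 tested. In Ai 2 were higher and 9 lower, in Y19F 3 higher and 11 lower, with medians of -0.062 and -0.099. This was 37.9% and 48.3% of the list, beside 4.55% and 18.0% of all tested genes. Between Y19F and Ai 4 were higher and 8 lower, 41.4% of the list, where 20.7% of all tested genes were called. Among all genes averaging 20 CPM or more 7.83% were called in Ai, 28.5% in Y19F and 31.9% between them. SDC1, an epithelial syndecan, was higher in Ai and lower in Y19F, at 314 ± 11.7 CPM in WT, 385 ± 10.4 in Ai and 253 ± 13.2 in Y19F, with 0.29 ± 0.044 (edgeR adjusted p = 1.89e-05) and -0.31 ± 0.044 (edgeR adjusted p = 2.67e-06). NID2, which links laminin to collagen IV, was likewise higher in Ai and lower in Y19F, at 0.27 ± 0.045 (edgeR adjusted p = 0.000139) and -0.24 ± 0.045 (edgeR adjusted p = 0.000154). SDC2, CAV1 and SLC3A2 were lower in Ai, at -0.48 ± 0.041, -0.21 ± 0.033 and -0.26 ± 0.044, and SDC2 and CAV1 were also lower in Y19F, at -0.19 ± 0.041 and -0.18 ± 0.033. GPC1, a glypican, fell from 429 ± 31.5 CPM in WT to 256 ± 13.0 in Y19F (-0.74 ± 0.047 (edgeR adjusted p = 1.28e-13)), FRAS1 changed by -0.70 ± 0.070 in Y19F and -0.41 ± 0.070 in Ai, both called, and SDC4 by -0.36 ± 0.043 in Y19F. NTN4, CD81 and COL17A1, the last a hemidesmosomal collagen, were higher in Y19F, at 0.22 ± 0.044, 0.16 ± 0.037 and 0.65 ± 0.20.

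Of 38 integrin ligands other than laminins, 36 were matched in the table and 24 tested, with 7 higher and 4 lower in Ai and 5 and 5 in Y19F, and medians of 0.075 and -0.019. This was 45.8% and 41.7% of the tested list, beside 4.55% and 18.0% of all tested genes. Between Y19F and Ai 3 were higher and 11 lower, 58.3% of the tested list, where 20.7% of all tested genes were called. Among all genes averaging 20 CPM or more 7.83% were called in Ai, 28.5% in Y19F and 31.9% between them. TNC, tenascin C, stood at 33.1 ± 0.698 CPM in WT, 67.7 ± 6.86 in Ai and 34.7 ± 3.23 in Y19F, with 1.03 ± 0.088 (edgeR adjusted p = 3.77e-10) in Ai and 0.065 ± 0.089 (edgeR adjusted p = 0.697) in Y19F. TGFBI, a matrix protein induced by TGF-beta, and FN1, the fibronectin bound by ITGA5, were higher in Ai at 0.29 ± 0.033 (edgeR adjusted p = 2.56e-07) and 0.30 ± 0.036 (edgeR adjusted p = 4.78e-07). THBS1, thrombospondin, went from 6212 ± 101 CPM in WT to 4099.9 ± 231 in Ai and 3817 ± 75.7 in Y19F, with -0.60 ± 0.030 (edgeR adjusted p = 3.14e-15) and -0.70 ± 0.030 (edgeR adjusted p = 1.24e-17). MFGE8 was lower in Ai at -0.25 ± 0.036 (edgeR adjusted p = 1.09e-05) and higher in Y19F at 0.14 ± 0.036 (edgeR adjusted p = 0.00352). NPNT, nephronectin, was lower in both at -0.42 ± 0.083 and -1.48 ± 0.086. SPP1, osteopontin, was higher in Ai at 0.48 ± 0.064 (edgeR adjusted p = 3.9e-06) and lower in Y19F at -1.11 ± 0.066 (edgeR adjusted p = 3.77e-14). EDIL3, TGFBI and TGFB2 were higher in Y19F at 0.40 ± 0.069, 0.16 ± 0.033 and 0.65 ± 0.13. The 4 fibroblast markers, of which COL1A1 made up nearly all, summed to 103 to 107 CPM in WT, 115 to 149 in Ai and 31.0 to 45.2 in Y19F, while DCN and LUM reached at most 3 and 4 counts in any library. COL1A1 is itself one of the ligands counted above. It was called higher in Ai at 0.35 ± 0.087 (edgeR adjusted p = 0.0111) and lower in Y19F at -1.46 ± 0.092 (edgeR adjusted p = 1.04e-13). The part of these markers in the values of the other ligands was not tested.

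The remaining tested members were low. ITGAE, ITGB2, ITGA2B and ITGB7, best known from leukocytes or platelets, ranged from 1.16 to 15.5 CPM and were not called in any contrast, with log2 fold changes against WT between -0.33 and 0.37. For ITGB2 the antisense gene ITGB2-AS1 held 31.0% as many counts, for ITGAE the nested gene HASPIN 129%, and for ITGB7 the overlapping gene ZNF740 1819%, so that without strand the reads of these genes cannot be told apart. LAMC3, LAMA2 and LAMA4 stayed at or below 4.98 CPM, with log2 fold changes between -0.77 ± 0.33 and 0.44 ± 0.54. LAMB4 had between 0 and 15 counts in a library with 2 libraries at 0, and its log2 fold change in Y19F was -1.79 ± 1.09 (edgeR adjusted p = 0.29). Of the 9 members under the filter, ITGA9 reached 20 counts in its highest library, the integrin-like secreted protein ITGBL1, which meets the rule by its name and is no receptor chain, 12, ITGA11 9, ITGAD 6, ITGAM 6, LAMA1 4, ITGAL 5 and ITGAX 1, and ITGA8 had 0 counts in every library, which allows up to 0.102 to 0.165 CPM. At this depth no change of these members was detectable.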

How the data were processed

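The authors deposited whole-number counts per gene for 9 libraries, with gene coordinates and lengths. Per the submitters' processing notes the reads passed through CASAVA, HISAT2 2.0.5 and featureCounts 1.5.0-p3 on hg38. The annotation release and the use of strand in counting were not given in the sources used here, so reads of overlapping genes may be split or dropped. The authors' table held 0 further per-sample columns. Groups and replicate numbers came from the labels.

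Genes were filtered with filterByExpr (minimum count 10, minimum total 15), leaving 16350, scaled by TMM and fitted in edgeR 4.0.16 (R 4.3.3) by the quasi-likelihood test with 1 mean per group over all 9 libraries, giving 6 residual degrees of freedom. P-values were adjusted by Benjamini-Hochberg over all tested genes. Standard errors were computed as the absolute log2 fold change divided by the square root of F. Replicate numbers are shared between groups, but deviations from group means correlated at only -0.012 to 0.026 between libraries of the same number, and the libraries were not treated as paired.

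DESeq2 1.42.0, other scalings and filters, protein-coding genes alone, a replicate block, only the compared groups, a threshold of 0.01 and leaving out each library were tried as alternatives. Values in every library were given for members called in any contrast or averaging 50 CPM or more. From each of 3 pathway lists, up to 3 called genes in each direction were named by the lowest adjusted p against WT. TEAD and AP-1 motifs were searched in promoters. 1 gene that meets the naming rule is not reported here and is left out of the members, though it stayed in the fit. Other genes named were chosen after their values were seen. The members, lists and motifs were chosen with earlier results of these data known. Promoter sequences were from RefSeq. Scripts were tested on simulated counts.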

Additional observations from a re-analysis of the deposited data

Results flagged for a closer look

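For 9 members the effect of the inhibitor and the effect of Y19F, each against WT, differed by the direct contrast of Y19F with Ai in edgeR's quasi-likelihood test, and at least 1 of the 2 effects was called. Y19F was lower than Ai for ITGA1 (log2 fold change -0.37, edgeR adjusted p = 0.0103), ITGB4 (-0.32, 0.00176), LAMA3 (-0.29, 1.01e-05), LAMB1 (-0.25, 7.59e-05), ITGA3 (-0.20, 1.83e-05), LAMC1 (-0.18, 0.000106) and LAMB3 (-0.16, 0.0102). It was higher for ITGB8 (0.27, 0.000219) and ITGB1 (0.084, 0.0343). The Y19F and Ai libraries did not overlap for any of these, which adds no support since the same contrast picked them. That contrast called 20.7% of all tested genes and 31.9% of those averaging 20 CPM or more. With 1 library left out, ITGB1, ITGA1 and LAMB3 kept the call in only 4, 6 and 7 of 9 fits. The line, the CDK9 form, the 24 h of inhibitor given to Ai alone and the depth of sequencing cannot be told apart in this contrast.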

How the results depend on the processing

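Of 33 called log2 fold changes of members, 23 kept direction and call under every alternative, 10 lost the call under at least 1, and 0 changed sign. The 10 were ITGA1, LAMB2 and LAMB3 in Y19F against WT and ITGA1, ITGA7, ITGAV, ITGB1, ITGB5, ITGB6 and LAMB3 in Y19F against Ai. With each library left out, the counts stayed at 6 higher and 3 lower in Ai and at 4 higher in Y19F, with 5 to 7 lower. Against Ai, Y19F had 1 to 2 members higher and 7 to 11 lower. These counts can include members not called with all libraries. Without Y19F replicate 3 this held for the lower calls in Y19F, both against WT and against Ai. With no filter beyond 1 count 1 member was higher and 9 lower in Y19F against Ai, and at an adjusted p under 0.01 1 was higher and 6 lower. With the replicate block the counts were 6 and 3 in Ai, 4 and 7 in Y19F and 2 and 11 between them, as without it, and the block rests on numbers alone. Leaving out Ai replicate 2 and Y19F replicate 3 together, as chosen after seeing the data, gave 1 higher and 7 lower between them. Of the adaptors and kinases, alternatives chosen after seeing the data gave 0 to 5 called in Ai with each library left out and 1 at an adjusted p under 0.01, beside 4, and the cause was not tested. Upper-quartile scaling moved the split of higher and lower calls over all tested genes in Y19F to 1474 and 1483. The medians of all genes moved by under 0.1 on the log2 scale. Members under about 20 CPM rest on fewer counts than the others, with at most 373 in a library for ITGAE and 72 for ITGA7. Having 3 libraries per group limits small changes.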
